A study of Mus musculus with 3 samples.

Results

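Greb1, the gene for growth regulation by estrogen in breast cancer 1, had 13 separate estrogen receptor α (ERα) sites around it in the mouse mammary gland 2 h after estradiol. The sites comprise every ERα ChIP-seq peak whose midpoint was within 100 kb of any annotated Greb1 transcription start site (TSS), whatever its score. These were 14 of the 9607 peaks of replicate 1 and 8 of the 6819 peaks of replicate 2, 22 peaks in all. Both replicates occupied 8 of the sites, replicate 1 alone occupied 5, and replicate 2 alone occupied 0. The highest scores were at 2 upstream sites, which lay beyond the neighboring gene E2f6, and at 3 sites in the first intron of Greb1. No peak lay at a Greb1 promoter.

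ChIP-seq recovers the DNA that a protein occupies with an antibody and sequences it, and a peak is a region with more reads than expected from the input, a library of the same kind of chromatin made with no antibody. Ovariectomy was performed on WT BALB/c mice (BALB/cJ in the study's methods) 6 weeks old, and after 10 days without ovaries each mouse received 100 ng of 17β-estradiol, 2 h before collection. Number 4 mammary glands of 6 mice were pooled for each of the 2 replicates, and 1 input library served both. All libraries came from estradiol-treated mice, so the peaks show where ERα was under estradiol and cannot show whether estradiol moved it there. The chromatin came from whole glands, in which fewer ERα-positive cells and less ERα binding per cell cannot be told apart. The score of a peak is 10 times the negative log10 of its MACS p-value, and the lowest scores were 80.02 in replicate 1 and 80.05 in replicate 2. A score rises with sequencing depth as well as with enrichment, and it was therefore ranked within its own list. The lists hold no read counts, and the depth behind a single peak is unknown.

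ERα is a nuclear receptor that binds estradiol and then DNA, often at the estrogen response element (ERE), an inverted repeat of a short half-site on which a receptor dimer sits. GREB1 is among the early and widely used estrogen-induced genes of breast cancer cells, and its protein is a cofactor found with ERα on chromatin. In the mammary gland, ERα is present in part of the luminal epithelial cells, and many of its sites lie far from promoters.

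Greb1 (ENSMUSG00000036523.9) occupies chr12:16677421-16807692 of NCBIM37, the assembly of mm9, on the minus strand. Its 12 annotated transcripts start at 11 TSSs, of which 4 belong to protein-coding transcripts. The most 5′ TSS was at base 16807692, a second was 202 bp downstream of it, and an internal coding TSS was 43691 bp downstream at base 16764001. The fourth coding TSS, at base 16715400, starts a transcript of 2445 bp. Sites were numbered 1 to 13 in the direction of Greb1 transcription.

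Sequences with the closest match to the ERE are shown first, because the ERE is the element that ERα itself recognizes. The consensus searched was GGTCANNNTGACC, with N for any base, and positions were counted from 1 at its 5′ end. All sequences are of the plus strand of the NCBIM37 reference, which is of another strain than the BALB/c mice, and the capitals mark the ERE.
site 4, chr12:16854911-16854971: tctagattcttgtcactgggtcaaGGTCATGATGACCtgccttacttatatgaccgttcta
site 7, chr12:16767313-16767373: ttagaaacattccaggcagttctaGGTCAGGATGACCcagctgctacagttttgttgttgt
site 5, chr12:16797392-16797452: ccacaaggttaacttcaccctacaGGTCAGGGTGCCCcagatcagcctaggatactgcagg
site 6, chr12:16771689-16771749: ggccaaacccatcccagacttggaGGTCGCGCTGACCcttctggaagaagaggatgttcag
site 10, chr12:16647099-16647159: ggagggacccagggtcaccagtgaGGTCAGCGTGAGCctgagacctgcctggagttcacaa
Sites 4 and 7 each carried an ERE without a mismatch. Site 5 differed from the consensus by A11C, site 6 by A5G and site 10, a site of replicate 1 alone, by C12G. Both half-sites were therefore complete at sites 4 and 7, while at sites 5, 6 and 10 one half-site was complete and the other carried a single substitution. A weaker resemblance was present at 3 further shared sites, which had a match with 2 mismatches.
site 2, chr12:16861039-16861099: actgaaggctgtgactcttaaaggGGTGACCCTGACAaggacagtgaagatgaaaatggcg
site 3, chr12:16857729-16857789: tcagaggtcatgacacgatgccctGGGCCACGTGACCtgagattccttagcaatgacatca
site 12a, chr12:16625811-16625871: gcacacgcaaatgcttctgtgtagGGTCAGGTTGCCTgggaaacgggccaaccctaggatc
The substitutions were C4G and C13A at site 2, T3G and A5C at site 3, and A11C and C13T at site 12. Here 12a and 12b denote the separate regions of site 12 at which a single replicate 2 peak overlapped 2 replicate 1 peaks.

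**Figure D1:**
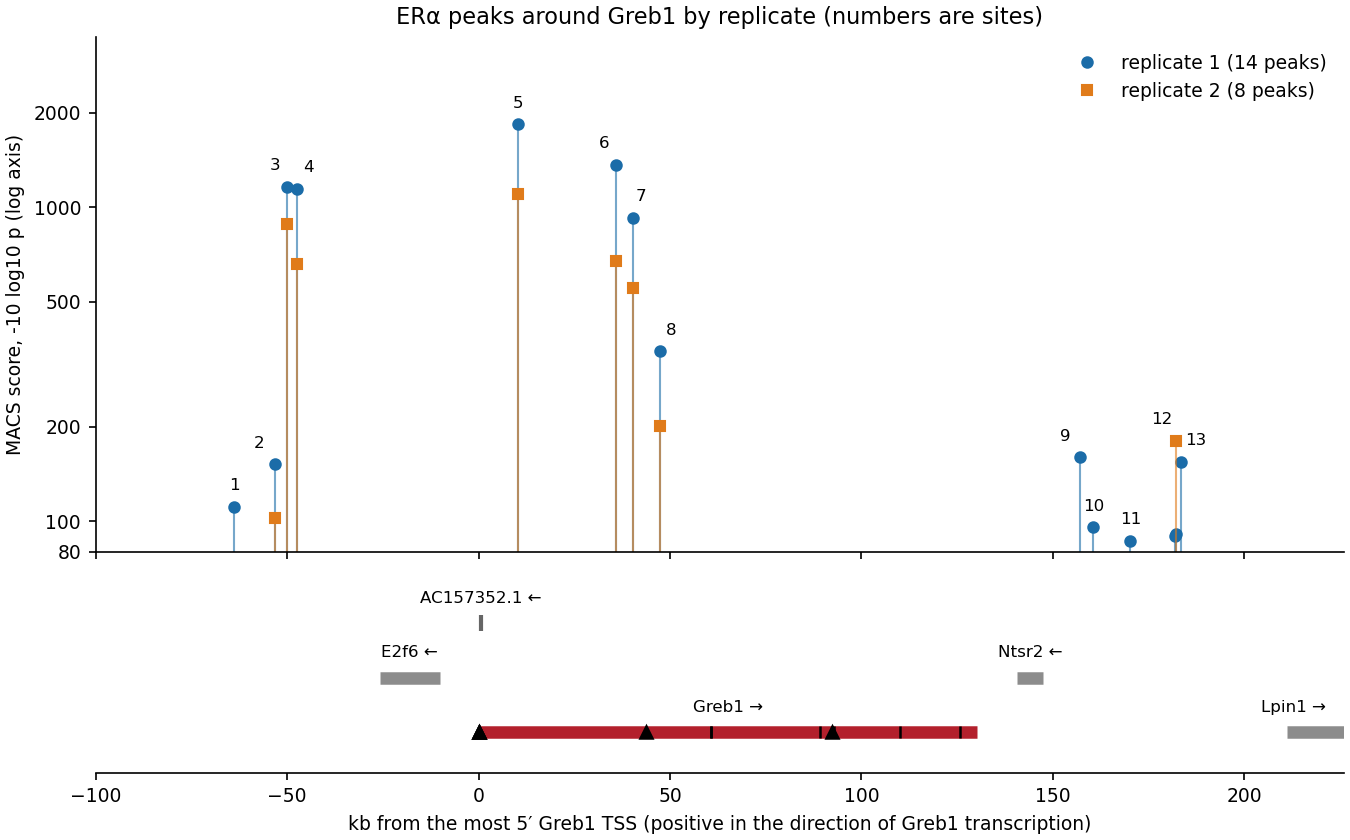
ERα peaks by distance from the most 5′ Greb1 TSS (kb, x axis) and MACS score (log y axis, from 80), with circles for replicate 1 and squares for replicate 2. Below, bars are the genes named in the text, with arrows for their direction on this axis, triangles are TSSs of coding Greb1 transcripts and vertical ticks on Greb1 are its other TSSs. Sites 3 to 7 had the highest scores, and the sites past the 3′ end of Greb1 all scored below 200.

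Upstream of Greb1, 4 sites lay 47.4 to 63.8 kb from its most 5′ TSS, and all 4 were separated from it by E2f6, a transcriptional repressor of the E2F family. Site 3, at 50.1 kb, scored 1161.48 in replicate 1 and 886.58 in replicate 2 and ranked 405th and 396th in the lists. Site 4, at 47.4 kb, scored 1145.52 and 658.83 and ranked 418th and 671st. These neighbors were 1.56 kb apart and stood within the top 10% of both lists, with 9.83% of replicate 2 peaks scoring higher than site 4. Site 4 was also the widest of the sites, at 1088 bp in replicate 1 and 1094 bp in replicate 2, and 2.47% and 5.37% of the peaks of those lists were wider.

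The other 2 upstream sites were weak. Site 2, at 53.2 kb, scored 151.76 in replicate 1 and 102.6 in replicate 2, and 53.5% and 78.8% of peaks scored higher. Site 1, at 63.8 kb, was present in replicate 1 alone with a score of 110.84, which 72.8% of that list exceeded. All 4 upstream sites were intergenic, between 21.6 and 37.9 kb past the 3′ end of E2f6. Sites 3 and 4 were nearest to the TSS of E2f6.

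Within Greb1, 4 sites occupied the first intron of the full-length transcript, and all of them were called in both replicates. Site 5, 10.3 kb downstream of the most 5′ TSS, had the highest score of the locus in both replicates, 1842.25 and 1106.15. It ranked 142nd of 9607 and 254th of 6819 peaks. Site 6, at 35.9 kb, scored 1367.36 and 673.83 and ranked 279th and 651st. Site 7, at 40.4 kb, scored 927.46 and 554.25 and ranked 610th and 853rd. Site 8, at 47.4 kb, was weaker, with scores of 348.09 and 200.71 and ranks of 2173rd and 2709th.

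Sites 6 to 8 surrounded the internal coding TSS. Site 6 was 7.78 kb and site 7 was 3.33 kb upstream of it, and site 8 was 3.69 kb downstream. Of the 8 shared sites, these 3 were nearest to a Greb1 TSS. Site 5 was nearest to AC157352.1, annotated as a miRNA gene inside the first intron of Greb1. With TSSs of protein-coding genes alone, 4 shared sites were assigned to Greb1. With only the most 5′ TSS of each gene, 0 were, and sites 5 to 8 were then nearest to AC157352.1. That gene starts 0.759 kb inside Greb1, so that site 6 was 35.2 kb from it and 35.9 kb from the Greb1 TSS.

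Past the 3′ end of Greb1, 5 sites lay 157.2 to 183.4 kb downstream of the most 5′ TSS, with Ntsr2, which encodes a neurotensin receptor, between them and Greb1. They fell within the 100 kb limit through TSSs in the 3′ part of Greb1, and the nearest of these belonged to a retained-intron transcript. Site 12 was the shared one. Its replicate 2 peak of 977 bp scored 180.26 and covered 2 replicate 1 peaks with scores of 90.79 and 89.57. Of the shared sites, it was the one with a higher score in replicate 2. Sites 9, 10, 11 and 13 had replicate 1 scores of 159.89, 95.43, 86.64 and 154.49. Sites 9 to 11 were nearest to the TSS of Ntsr2, and sites 12 and 13 to that of Lpin1, a phosphatidate phosphatase of lipid synthesis.

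No peak of either replicate overlapped the body of E2f6, Ntsr2, Lpin1 or AC157352.1. None lay in the proximal region, from 1000 bp upstream to 400 bp downstream, of any of the 11 Greb1 TSSs. The peak nearest to the most 5′ TSS was the replicate 2 peak of site 5, whose midpoint was 10257 bp away. The 2 Greb1 promoters in RefSeq, each 300 bases from GRCm38.p6, matched NCBIM37 exactly once each, at bases 16807643 to 16807942 and 16763996 to 16764295 of chromosome 12. The upstream promoter had 65.3% GC and 19 CpG dinucleotides, and the internal one had 46.3% GC and 3. The closest ERE match in them had 3 and 4 mismatches, and 0 peaks overlapped either.

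The choice of 100 kb set no boundary through the cluster. The members farthest from any Greb1 TSS were 63.8 kb away in replicate 1 and 56.2 kb away in replicate 2. The first peaks outside were 226.7 kb away with a score of 80.57 in replicate 1 and 274.7 kb away with a score of 289.1 in replicate 2. Within the locus, 8 of the 9 shared regions had another shared region within 10 kb, as did 30.0% of all shared regions. The median distance to the nearest shared region was 3119 bp at Greb1 and 32143 bp over 6249 regions. Regions 12a and 12b, which share a replicate 2 peak, counted as each other's neighbors. With regions that share a peak merged, 6 of 8 Greb1 sites had another within 10 kb, as did 28.5% of 6167 merged sites, and site 12 was 134624 bp from the nearest.

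Both replicates gave nearly the same order of the 7 sites with 1 peak in each list. In replicate 1 it was sites 5, 6, 3, 4, 7, 8 and 2, and in replicate 2 sites 3 and 6 changed places. The score was higher in replicate 1 at 7 of these 7 sites, with a median ratio of 1.67. Across all 6097 one-to-one pairs, 81.2% were higher in replicate 1 and the median ratio was 1.31 (quartiles 1.07 and 1.63). The lowest Greb1 ratio was 1.31 at site 3 and the highest was 2.03 at site 6, and 90.3% of pairs had a lower ratio than site 6. Midpoints of the paired peaks differed by 24 to 73 bp.

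**Figure D2:**
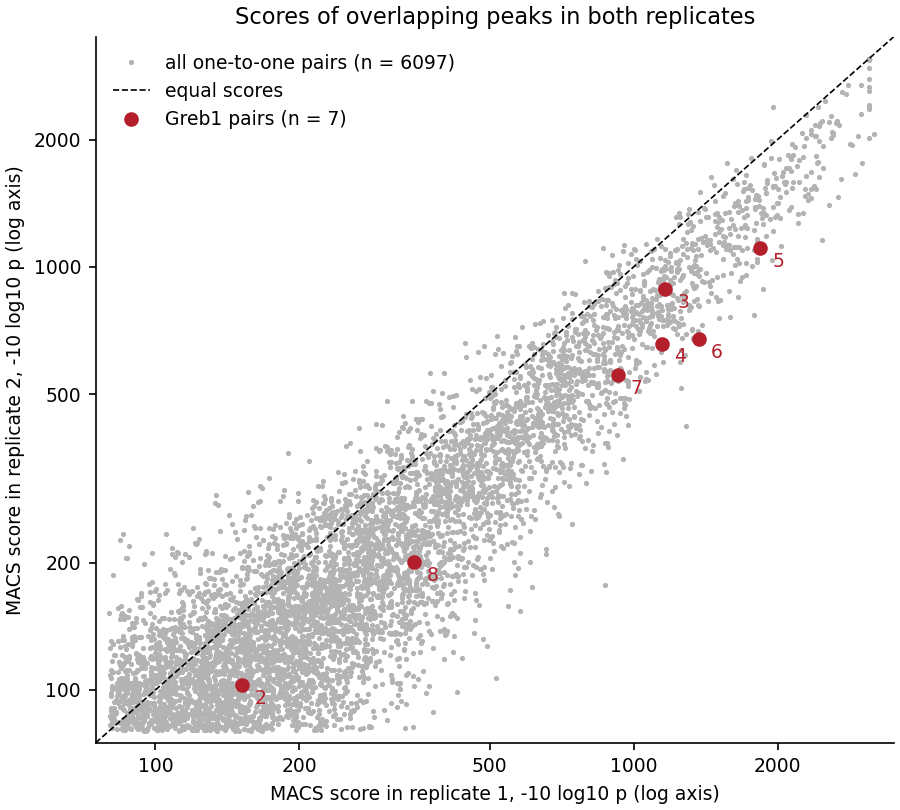
MACS scores of overlapping peaks in replicate 1 (x) and replicate 2 (y), both on log axes, for all 6097 one-to-one pairs (gray) and the 7 Greb1 pairs (red, with site numbers). The dashed line marks equal scores, and all 7 Greb1 pairs lie below it.

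Of the 14 replicate 1 peaks at Greb1, 9 overlapped a replicate 2 peak, against 64.9% of all replicate 1 peaks. The 5 peaks without a partner scored between 86.64 and 159.89. In that range of scores there were 8 Greb1 peaks, of which 3 had a partner, and 39.6% of the 4035 peaks of replicate 1 did. The sites of replicate 1 alone thus lay among scores at which most peaks of that list had no partner. With 2 replicates, each pooled from 6 mice, the lists give no measure of how animals vary, and the scores are given without a test.

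ERE matches were counted in windows of 400 bp around the midpoint of each region. Sites 5, 6 and 7, which are 3 of the 9 shared regions, had a match with at most 1 mismatch, beside 31.1% of 6243 shared regions and 1.10% of 12040 windows placed 5 kb to each side of them. The ERE of site 7 was 13 bp, that of site 5 was 44 bp and that of site 6 was 62 bp from the midpoint. The same 10 defined bases as at site 7, without a mismatch, occurred in 412 shared and 5 flanking windows. The site 5 variant, read on either strand, occurred in 236 and 6 windows and the site 6 variant in 67 and 1. Of 15 possible single-substitution variants, read on either strand, the site 5 variant was the 2nd and the site 6 variant the 10th by number of shared windows.

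The window mattered at site 4. Its perfect ERE, at bases 16854935 to 16854947, was centered 199 bp from the midpoint, and 6 of its 13 bases fell outside the 400 bp window. When the whole interval covered by both peaks was searched, 4 of 9 Greb1 regions had an ERE with at most 1 mismatch and 2 of 9 had one without a mismatch. The corresponding shares of all shared regions were 32.3% and 6.74%. Of 421 shared regions with a perfect ERE in the interval, 2.14% had it at least as far from the midpoint, and the median distance was 27 bp. The interval of site 4 was 1039 bp long, and 2.88% of intervals were at least as long.

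With up to 2 mismatches in the window, 6 of 9 shared regions had a match, beside 67.3% of shared regions and 15.5% of flanking windows. Sites 2, 3 and 12a account for the additional regions. The site 2 variant occurred in 26 shared and 17 flanking windows, the site 3 variant in 16 and 11, and the site 12a variant in 71 and 18. Site 8 had 3 mismatches in its closest match. It carried 2 half-sites in the same orientation, shown here in capitals because no other element searched for was found at this site.
site 8, chr12:16760320-16760375: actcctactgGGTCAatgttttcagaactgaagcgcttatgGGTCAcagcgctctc
The half-site GGTCA, on either strand, was present in 9 of 9 shared regions, in 88.9% of all shared regions and in 50.6% of flanking windows. At least 3 half-sites, more than at site 8, were held by 28.4% of shared regions. Sites 2, 5, 6 and 12b likewise held 2 half-sites, both in the same orientation, so such a pair was not particular to site 8. How many of all shared regions hold such a pair was not counted. Site 3 held 4 half-sites, and 10.8% of shared regions held at least 4. Among the sites of replicate 1 alone, 1 of 5 had an ERE with at most 1 mismatch, site 10, beside 15.7% of 3368 replicate 1 peaks without a partner. The variant of site 10 occurred in 36 shared and 16 flanking windows.

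**Figure D3:**
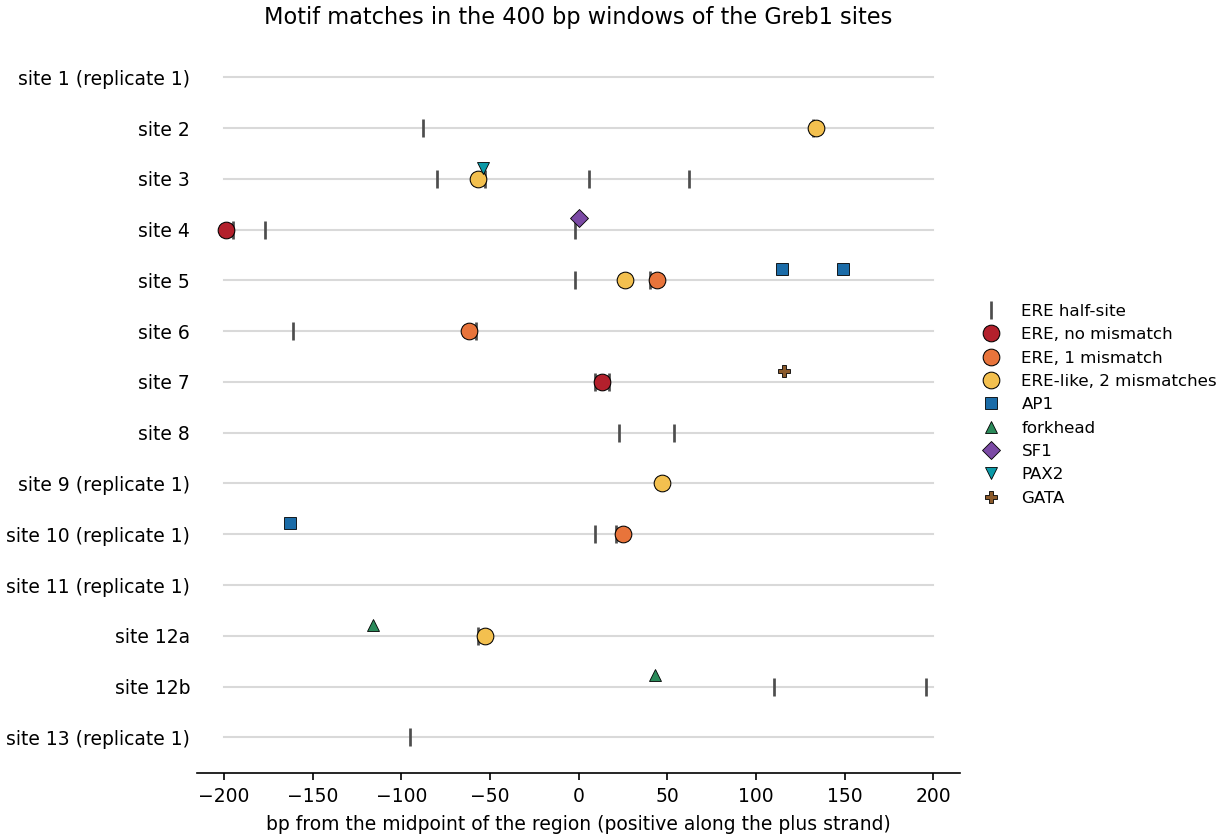
Positions of motif matches (symbols, see legend) relative to the midpoint of each region (bp, plus strand to the right). Gray lines are the 400 bp windows, the rows are the Greb1 regions from upstream to downstream, and the ERE of site 4 sits at the left edge of its window. The EREs of sites 5, 6 and 7 lie within 62 bp of the midpoint.

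The order of the Greb1 sites by score differed from their order by closeness to the ERE. Over all shared regions, the median of the lower of both scores was 340 with a perfect ERE, 224 with 1 mismatch, 168 with 2 and 135 with 3 or more. At Greb1, site 3, with 2 mismatches, had a lower score of 886.58, which 4.33% of its class reached, and this was above the 554.25 of site 7 with a perfect ERE. Of the class of site 7, 33.5% reached its score. Site 5, with 1 mismatch, had a lower score of 1106.15, which 6.93% of its class reached. By its window, site 4 was in the class with 3 or more mismatches, of which 4.66% reached its lower score of 658.83. Counted instead among the 421 intervals with a perfect ERE, 28.7% reached it.

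**Figure D4:**
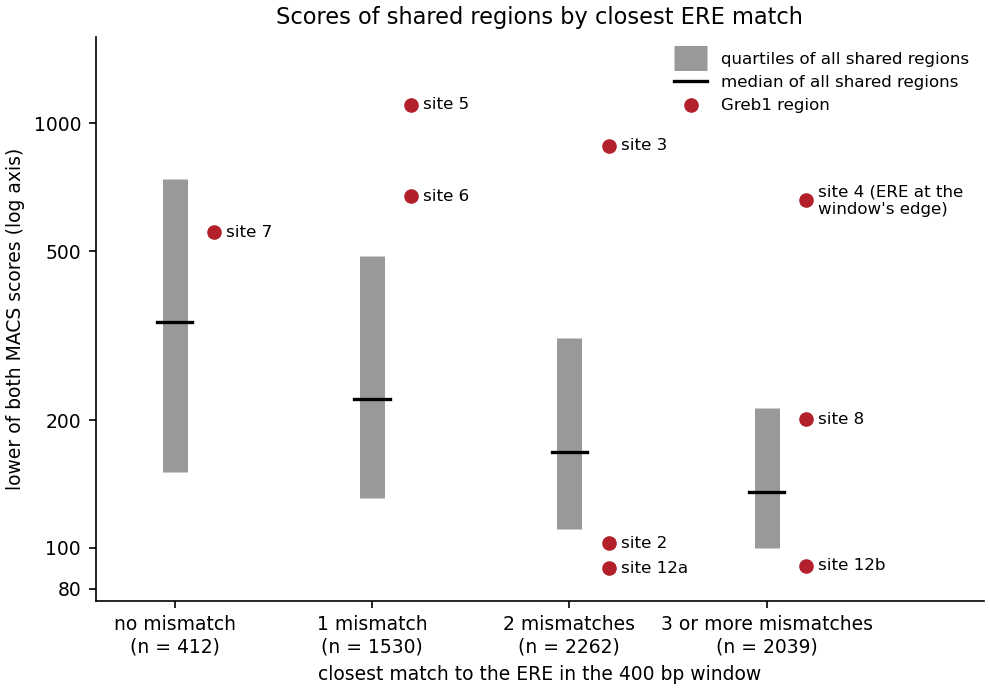
Lower of both MACS scores (log y axis) for shared regions grouped by their closest ERE match in the 400 bp window (x axis), with gray bars for the quartiles, black lines for the medians and red points for the 9 Greb1 regions. Sites 3, 4, 5 and 6 lie above the upper quartile of their class, and sites 2, 12a and 12b lie below the lower one.

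Motifs of other factors were searched as exact letters on both strands of the same windows. The AP1 element of FOS and JUN dimers, written TGAGTCA, was present in 1 of 9 shared regions, beside 16.7% of all shared regions and 7.11% of flanking windows. This was site 5, which held 2 AP1 elements after its ERE.
site 5, chr12:16797406-16797540: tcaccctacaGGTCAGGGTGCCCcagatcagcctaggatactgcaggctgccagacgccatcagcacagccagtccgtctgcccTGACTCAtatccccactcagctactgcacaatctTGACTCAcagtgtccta
Between the ERE and the nearer AP1 element there were 61 bases, and between the AP1 elements 27. An ERE with at most 1 mismatch and AP1 occurred together in 4.85% of shared regions, and 2 or more AP1 elements occurred in 1.57% of shared and 0.316% of flanking windows. Site 5, the highest-scoring site of the locus, was the only shared Greb1 region with both. Among sites of replicate 1 alone, site 10 had AP1 in the window of its ERE variant, but the AP1 match ended 10 bp before the called peak, which was 300 bp wide.

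In its window, site 4 held the SF1 motif, written CAAGGTCA, on the minus strand at the midpoint of the region. The motif is an extended half-site at which orphan nuclear receptors bind.
site 4, chr12:16855111-16855168: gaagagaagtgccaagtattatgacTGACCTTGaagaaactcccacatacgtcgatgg
The SF1 motif contains the ERE half-site, so each match to it is also a half-site. Outside the window of site 4, the same letters ended in the first half-site of its perfect ERE, printed above. That match was not counted. In the windows, SF1 was found in 1 of 9 Greb1 regions, 9.35% of shared regions and 3.01% of flanking windows. It was centered within 20 bp of the midpoint in 2.69% of shared regions. The PAX2 motif, written GTCACG, was present in 1 of 9 regions, beside 9.16% of shared regions and 3.95% of flanking windows. It lay at site 3, within the bases of the ERE-like sequence shown above, where it overlaps a half-site. The remaining matches were to the motifs of forkhead factors such as the FOXA proteins, in both regions of site 12, and of GATA factors, at site 7. The forkhead motif was written TGTTTAC, and the variant TATTTAC was accepted as well, while that of the GATA factors was written AGATAA.
site 7, GATA, chr12:16767428-16767463: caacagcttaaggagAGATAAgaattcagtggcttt
site 12a, forkhead, chr12:16625760-16625796: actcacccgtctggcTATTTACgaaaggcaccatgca
site 12b, forkhead, chr12:16625443-16625479: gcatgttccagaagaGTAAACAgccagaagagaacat
Forkhead was thus present in 2 of 9 regions, beside 14% of shared regions and 10.7% of flanking windows, and both were at site 12, the shared site with the lowest scores in replicate 1 but not in replicate 2. The GATA motif was present in 1 of 9, beside 20.7% of shared regions and 20.2% of flanking windows. The GC box of Sp1, written GGGCGG, was present in 0 of 9, beside 9.47% of shared regions and 5.96% of flanking windows. These counts come from 9 regions, and their difference from the shares of all shared regions was not tested.

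The primer pairs that the study used for ERα ChIP followed by qPCR at Greb1 located to sites 7 and 5, which lay 3.33 and 33.4 kb upstream of the internal TSS, and not to the sites beyond E2f6. The first pair bounds a product of 62 bp that contains the perfect ERE of site 7. The second bounds one of 64 bp in site 5, whose last base is 9 positions before the first base of its ERE. In this qPCR assay the study compared vehicle with estradiol, and it reported ERα recruitment to both sites in response to estradiol. The products are printed because they show which parts of the sites were assayed, and capitals mark the ERE that the first contains.
site 7, chr12:16767300-16767361: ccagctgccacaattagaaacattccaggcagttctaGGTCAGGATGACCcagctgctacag
site 5, chr12:16797344-16797407: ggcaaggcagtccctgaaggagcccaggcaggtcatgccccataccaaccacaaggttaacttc

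Compared with other genes, Greb1 had many ERα regions around it. Of 22367 protein-coding genes, 61 (0.273%) had at least 9 shared regions within 100 kb of a TSS, the median was 0 and 61.9% had none. The highest number was 19. The 11 TSSs of Greb1 extend its window to 325.8 kb, against a median of 200.1 kb. Per 100 kb of window, Greb1 had 2.76 regions and 1.01% of genes had at least as many. By the lower of both scores, 4.02% of the 6250 shared regions scored higher than site 5, the strongest at Greb1, and 2.62% of genes had a region at least as strong within 100 kb.

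A list of 10 genes that the study names beside an ERα site or as estradiol-induced gave a scale for this count. The study chose them with its own results known, and they are no independent evidence. For the genes named beside a site, having a region nearby followed from that choice. All 10 had at least 1 shared region within 100 kb, with a median of 2.5. Errfi1, an inhibitor of the EGF receptor, had 11, or 5.47 per 100 kb, and by count was the 1 gene of the list with at least as many as Greb1. Pgr, the progesterone receptor, and Fos, the AP1 component, had 7 each in windows of about 201 kb, or 3.48 per 100 kb. Csf1, the macrophage colony-stimulating factor, had 6, or 2.86 per 100 kb, and the keratin gene Krt4 had 4. Gata3, Areg, Bmp8a, Heyl and Gata6 had 1 each. Per 100 kb of window, Errfi1, Pgr, Fos and Csf1 were above the 2.76 of Greb1, and the other genes of the list were below it. Sites of Greb1 also counted for its neighbors, since E2f6 had 7 shared regions within 100 kb, Ntsr2 2 and Lpin1 2. Per 100 kb of window, E2f6 had 3.50, above the 2.76 of Greb1, while Ntsr2 and Lpin1 were below it.

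**Figure D5:**
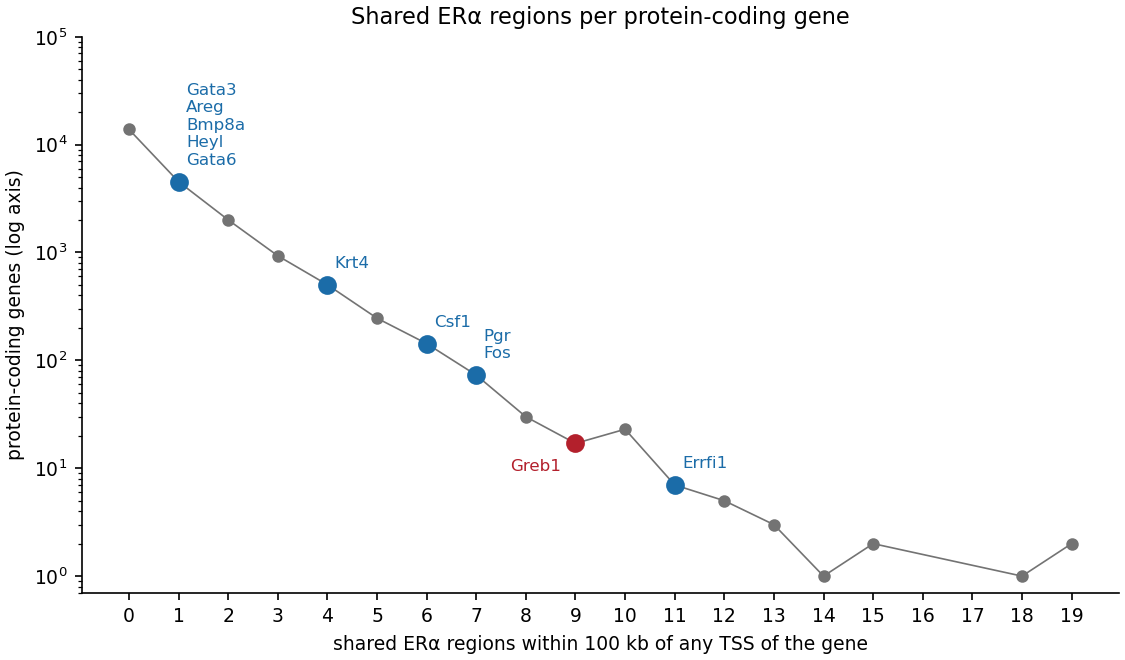
Number of protein-coding genes (log y axis) by the number of shared ERα regions within 100 kb of any of their TSSs (x axis). The red point marks the value of Greb1, 9, and blue points mark those of the 10 listed genes that the study names, of which Errfi1 has 11.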

How the data were processed

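Peak lists of 2 ERα ChIP-seq replicates from mammary glands were analysed. Reads were aligned by the authors with BWA (mm9), and MACS was run on each replicate separately against the input library at a p-value of 1e-08. The MACS version is not given in the sources used here. The deposited score of a peak equals 10 times −log10 of its p-value. The sample labels and the published methods name different library kits.

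An overlap of 1 bp or more made a pair of peaks shared, with their intersection as the shared region. Coordinates were joined to NCBIM37 and GENCODE vM1, in which all peaks on assembled chromosomes ended within the chromosome, while 9 peaks of replicate 1 and 7 of replicate 2 on other sequences were left out of the motif search. Motifs were searched as consensus strings, and the search and the overlap were tested on simulated data. Genes described were Greb1, those between a site and its nearest Greb1 TSS, the gene nearest to each site and genes that the study names, of which 2 genes are not reported here. The members and lists were chosen with earlier results of these data known. No test was made, since there was 1 group. Alternatives were stricter p-values, other overlaps, TSS sets, distances and motif settings, and each replicate alone. Scripts ran on samtools 1.23.1, matplotlib 3.10.9, pysam 0.24.0, scipy 1.17.1, numpy 2.4.6 and Python 3.11.15.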

Additional observations from a re-analysis of the deposited data

How the results depend on the processing

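No paired analysis was possible because there was 1 ChIP group and no test. The count of 9 shared regions was 5 within 50 kb of a TSS, and 6 to 8 under stricter p-values of 1e-10 and 1e-20, stricter overlap, the most 5′ TSS alone and, chosen after seeing the data, merging into sites. It was 8 without replicate 1 and 14 without replicate 2. The number of shared regions nearest to a Greb1 TSS, 3, was 0 when each gene had its most 5′ TSS alone and 3 to 4 otherwise, 3 without either replicate. The number with an ERE, 3, was 1 without a mismatch and 6 with at most 2, and 3 without replicate 1 and 5 without replicate 2, where the window around the replicate 1 peak of site 4 took in its ERE and site 10 was counted. In the whole interval it was 4, or 2 without a mismatch, the latter chosen after seeing the data.

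The share of genes with at least as many regions as Greb1, 0.273% (exact 95% interval 0.209 to 0.350), was 0.581% when each gene had its most 5′ TSS alone, 0.107% at a p-value of 1e-20 and 0.684% within 50 kb. It was 0.456% without replicate 1 and 0.139% without replicate 2, and 1.01% per kb of window, a measure chosen after seeing the data. In these settings, at most 1.01% of genes reached Greb1. The interval covers counting error only and treats genes as independent draws, although neighboring genes share regions.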
